A study of Mus musculus with 2 samples.

Results

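Mir139, Mir149, Mir140 and Mir185 are 4 microRNA genes that sit inside other genes, among 2202 annotated microRNA genes counted in mouse heart. They were chosen by their symbol, and that choice was made on measured values: each was abundant in the 2 libraries or differed strongly between them. Their levels and their differences between libraries are therefore given as descriptions, without a test. Both libraries were made from female heart at 2 months of age, of B6CASTF1/J, a hybrid of a laboratory strain and a wild-derived castaneus strain. They form 1 group, replicates 1 and 2, with no treatment and no second condition. The libraries are numbered as biological replicates but share a donor label, so whether they come from 2 animals is not settled. Each SD below is the spread between 2 libraries, not necessarily between animals. The tissue was taken whole, so a lower level from fewer cells of a type and one from less RNA per cell cannot be told apart.

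An intronic microRNA is transcribed with its host gene or from a start site of its own, cut from the primary transcript as a hairpin by Drosha and Dgcr8, and trimmed by Dicer to short mature strands. The mature strand guides Argonaute to messenger RNAs, mainly by pairing of its seed, the bases 2 to 8. Mir139 lies in Pde2a, which encodes a phosphodiesterase that degrades cyclic AMP and is stimulated by cyclic GMP, and its product is known as a restraint on growth signalling. Mir149 lies in Gpc1, which encodes glypican-1, a heparan sulfate proteoglycan of the cell surface. Mir140 lies in Wwp2, a ubiquitin ligase gene, and is best known from cartilage, where its loss disturbs skeletal growth. Mir185 lies in Tango2, whose loss in people causes metabolic crises with heart rhythm disturbances, in the region lost in DiGeorge syndrome.

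The hairpins are shown first, because the counts are per hairpin and do not say which arm a read came from. RefSeq's table (GRCm38.p6) held all 4 hairpins and 6 of their mature sequences. The hairpins are base for base identical to the GENCODE M21 transcripts used for counting. They are written 5′ to 3′, with the listed mature sequences in capitals.
Mir139: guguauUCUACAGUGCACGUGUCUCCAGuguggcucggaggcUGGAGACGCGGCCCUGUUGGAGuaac
Mir149: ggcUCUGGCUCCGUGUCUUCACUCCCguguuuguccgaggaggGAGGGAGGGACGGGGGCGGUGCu
Mir140: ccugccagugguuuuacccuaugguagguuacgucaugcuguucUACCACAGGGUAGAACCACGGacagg
Mir185: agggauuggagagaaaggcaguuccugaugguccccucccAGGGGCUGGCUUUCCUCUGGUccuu

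The listed mature sequences carry 6 different seeds, given here in capitals, since the seed decides which messengers a strand can pair with.
mmu-miR-139-5p: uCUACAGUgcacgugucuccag
mmu-miR-139-3p: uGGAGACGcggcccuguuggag
mmu-miR-149-5p: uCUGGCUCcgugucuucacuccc
mmu-miR-149-3p: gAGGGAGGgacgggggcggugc
mmu-miR-140-3p: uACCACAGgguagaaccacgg
mmu-miR-185-3p: aGGGGCUGgcuuuccucuggu
For Mir140 and Mir185 only the 3p sequence was listed, so the seeds of their other arms are not shown and were not compared. No seed was shared among these 6 sequences. Among the 1738 mature sequences in the table, no other gene carried the seeds of mmu-miR-139-5p, mmu-miR-139-3p or mmu-miR-149-5p. The seed of mmu-miR-149-3p recurred at 4 other genes, of which Mir1943 had 6 and 7 counts in replicates 1 and 2 and Mir7016, Gm27775 and Gm27740 had 0 in both. The seed of mmu-miR-140-3p recurred in Mir497b and that of mmu-miR-185-3p in Mir7048, each with 0 counts in replicate 1 and 1 in replicate 2. None of these 6 genes reached the 10 counts in both libraries that were taken as detection, and a count of 0 allows up to 3 counts.

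All 4 hairpins lie on the coding strand of their hosts (mm10 coordinates). Mir139 (chr7:101475376-101475443, plus strand) lies in intron 2 of the Pde2a transcript Pde2a-201, 23907 bases after the exon before it and 5927 bases ahead of the next one. It also lies in an intron of Gm45837, a coding gene model that overlaps Pde2a on the same strand. Mir149 (chr1:92850378-92850443, plus strand) lies in intron 1 of Gpc1-201, with 18280 bases before it and 2903 after it. Mir185 (chr16:18327401-18327465, minus strand) lies in intron 1 of Tango2-201, with 16429 bases before it and 2950 after it. These 3 hairpins thus sit in long introns of 29902, 21249 and 19444 bases with low numbers, each in the downstream part of the intron. By distance they lie 53685 bases into the 91137 of Pde2a-201, 18733 into the 29135 of Gpc1-201 and 16577 into the 43216 of Tango2-201.

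Mir140 (chr8:107551244-107551313, plus strand) differed from them in its place. It lies in intron 16 of Wwp2-201, an intron of 2141 bases, with 1108 bases before it and 963 after it. The start of Wwp2-201 is 114879 bases away, while the shorter coding transcript Wwp2-205 starts 6232 bases upstream of the hairpin. The annotation also holds Wwp2-206, a transcript of 2653 bases that keeps this intron, so by that model Mir140 is exonic. It was also the only transcript outside the 4 genes, among 141767 in GENCODE M21, that contained 1 of the 6 mature sequences exactly on either strand.

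**Figure D1:**
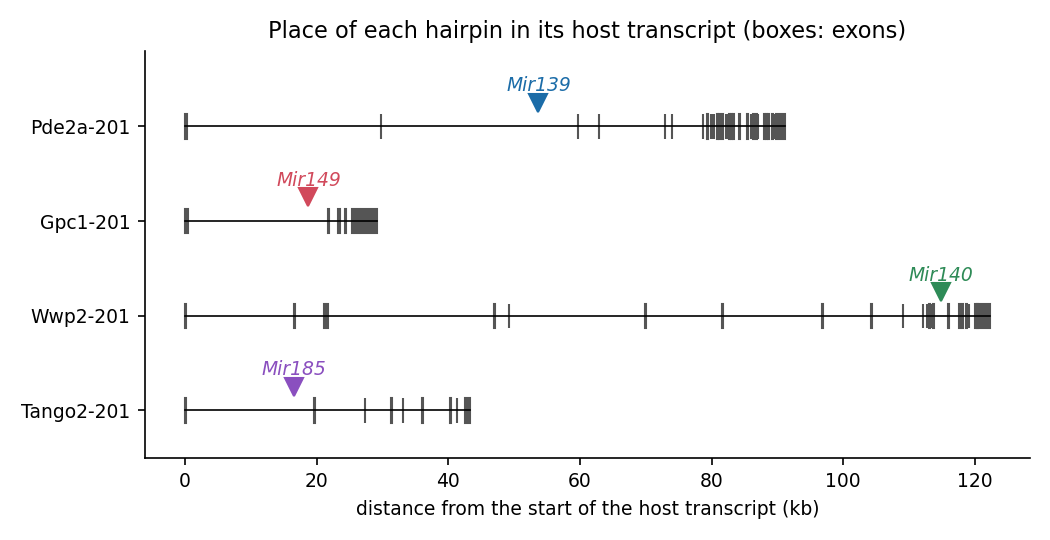
Place of each hairpin (triangle) along 1 host transcript, drawn to scale in kb from the transcript's start, with exons as boxes. Mir139, Mir149 and Mir185 lie in long introns, 53685, 18733 and 16577 bases from the start, and Mir140 lies 114879 bases from the start of Wwp2-201 among closely spaced exons.

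The 4 hairpins were short, 65 to 70 bases against a median of 84 over the 306 detected genes. Mir149 was the richest in G and C at 68.2%, higher than 96.1% of detected hairpins, and Mir140 the poorest at 52.9%, against a median of 51.0%. Predicted folding energy per base lay between -0.572 kcal/mol for Mir185 and -0.524 for Mir139, all below the median of -0.435. The longest exact stretch shared with a hairpin at another locus, on either strand, was 11 bases for Mir139 and Mir140 and 15 bases for Mir149 and Mir185. None reached the 20 bases used here to mark genes whose reads may map to several places, so the label of single-copy genes held among annotated hairpins. Matches elsewhere in the genome were not searched.

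Replicates 1 and 2 held 2424441 and 2770301 reads counted to microRNA genes on their own strand, 30.0% and 34.7% of all reads. Levels are in CPM, counts per 1000000 of these reads, and 95% intervals cover counting error only. A read spans a whole mature strand, so counts were not divided by length. Of the 7 heart muscle markers 4 were detected, led by Mir208a (1542 and 5865 CPM) and Mir499 (4354 and 2641 CPM). Mir1a-1, Mir133a-1 and Mir133a-2 had at most 11 counts and were not detected. Like Mir1a-2, they share a stretch with another hairpin of the length used here to mark genes whose reads may map to several places. Such reads, 49.5% and 42.7% of all reads in replicates 1 and 2, counted for no gene. The low counts of these genes therefore do not show that their microRNAs were scarce. The liver microRNA Mir122 stood at 40.4 and 17.3 CPM. The 3 Mir124a genes of neurons had 0 counts in both. Mir124a-1 and Mir124a-3 also share a stretch with another hairpin, so these counts do not show that their microRNA was absent.

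Mir139 was the most abundant of the 4 genes on average. It had 67812 counts in replicate 1, or 27970 CPM (95% exact Poisson interval 27760 to 28182), and 57672 counts in replicate 2, or 20818 CPM (20648 to 20989). It ranked 11 and 13 among all microRNA genes. Its mean was 24394 ± 5057 CPM (SD, n = 2), and its level in replicate 2 was 1.34-fold lower (exact interval 1.33 to 1.36).

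Mir149 differed in the other direction and traded places with Mir139. It had 35601 counts in replicate 1, or 14684 CPM (14532 to 14838), and 69758 in replicate 2, or 25181 CPM (24994 to 25368), with ranks 14 and 12. The mean was 19932 ± 7422 CPM (SD, n = 2), and replicate 2 was 1.71-fold higher (1.69 to 1.74). The means of Mir139 and Mir149 differed by less than either gene's SD, and each gene led in 1 library, so their order is not settled by these data.

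Mir140 stood in the range of Mir149 in 1 library and well below it in the other. It had 30135 counts in replicate 1, or 12430 CPM (12290 to 12571), close below Mir149 there. In replicate 2 it had 7998 counts, or 2887 CPM (2824 to 2951), and its rank went from 15 to 37. Its mean of 7658 ± 6748 CPM (SD, n = 2) has an SD nearly as large as itself, and replicate 2 was 4.31-fold lower (4.20 to 4.41).

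Mir185 was the least abundant of the 4 genes in both libraries. It had 407 counts in replicate 1, or 168 CPM (152 to 185), and 3397 in replicate 2, or 1226 CPM (1185 to 1268), with ranks 126 and 59. The mean was 697 ± 748 CPM (SD, n = 2), so that the SD exceeded the mean, and replicate 2 was 7.30-fold higher (6.59 to 8.12). Even its higher value lay below the lowest value of Mir140.

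**Figure D2:**
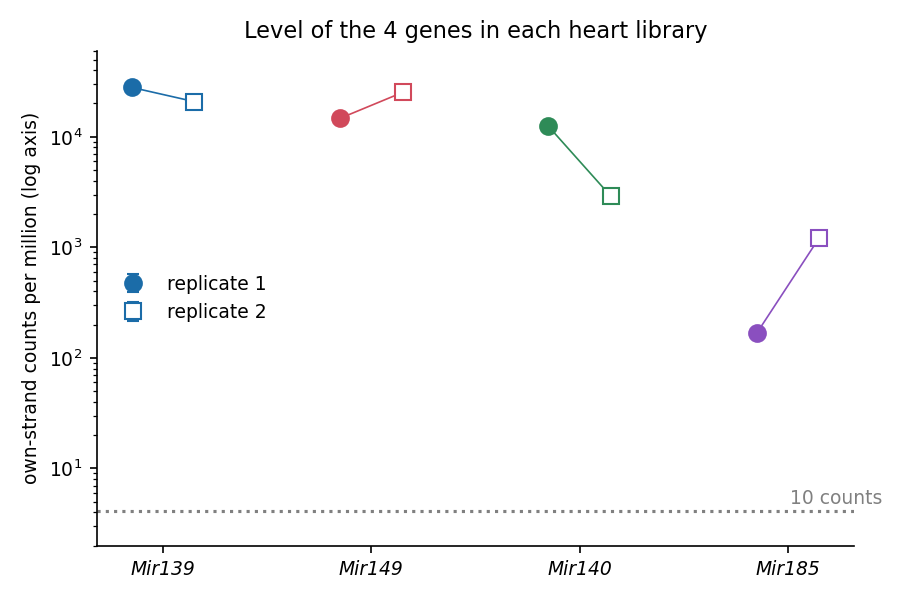
Own-strand CPM (log axis) of the 4 genes in replicate 1 (filled circles) and replicate 2 (open squares), with 95% exact Poisson intervals that are mostly smaller than the symbols; the dotted line marks 10 counts in replicate 1. Mir139 and Mir149 lie between 14684 and 27970, while Mir140 and Mir185 move in opposite directions.

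All reads of the 4 genes lay on the hairpin's own strand: each had 0 counts on the opposite strand in both libraries, which allows up to 3. For these 4 genes the either-strand column held the same counts as the own-strand column, which is not so for every gene. No other microRNA gene lay within 50 kb of Mir139, Mir149 or Mir140 or within their hosts. Around Mir185 there were 3, Mir1306, Gm26219 and Gm24572. Mir1306, which overlaps an exon of the microRNA processing gene Dgcr8 and lies 43083 bases from Mir185, had 559 counts in replicate 1 (231 CPM) and 556 in replicate 2 (201 CPM). Its log2 ratio of replicate 2 over replicate 1 was -0.20, close to the median of -0.19 over all detected genes, where Mir185 stood at 2.87. The other 2 genes had 0 counts in both libraries.

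Together the 4 genes held 5.53% of microRNA counts in replicate 1 (95% exact Clopper-Pearson interval 5.50 to 5.55) and 5.01% in replicate 2 (4.99 to 5.04), a mean of 5.27% ± 0.363 (SD, n = 2). Within this sum the parts changed more than the sum did. Mir139 made up 50.6% of it in replicate 1 and 41.5% in replicate 2, and Mir149 26.6% and 50.2%. Mir140 went from 22.5% to 5.76% and Mir185 from 0.304% to 2.45%.

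Ratios between 2 genes of the same library do not depend on how libraries are scaled. With 95% exact intervals in brackets, Mir139 to Mir149 stood at 1.90 (1.88 to 1.93) in replicate 1 and at 0.827 (0.818 to 0.836) in replicate 2. Mir149 to Mir140 went from 1.18 (1.16 to 1.20) to 8.72 (8.52 to 8.93), and Mir139 to Mir140 from 2.25 (2.22 to 2.28) to 7.21 (7.04 to 7.38). Mir140 was thus lower in replicate 2 against both abundant genes.

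All 3 ratios to Mir185 were smaller in replicate 2. Mir139 to Mir185 was 167 in replicate 1 (151 to 184) and 17.0 in replicate 2 (16.4 to 17.6). Mir149 to Mir185 was 87.5 (79.3 to 96.7) and 20.5 (19.8 to 21.3). Mir140 to Mir185 changed the most of the 6 pairs, from 74.0 (67.1 to 81.9) to 2.35 (2.26 to 2.45), or 31.4-fold.

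**Figure D3:**
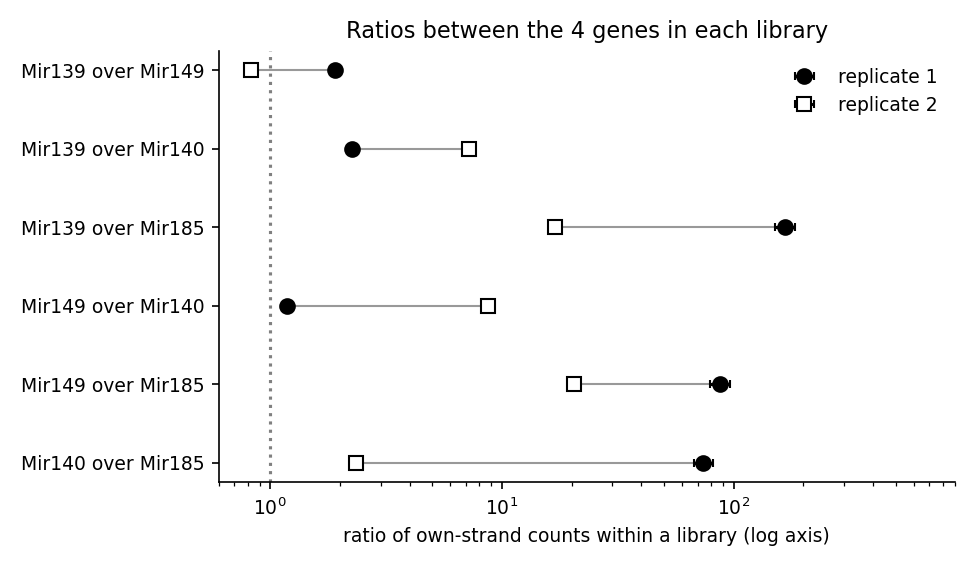
Ratio of own-strand counts between each pair of the 4 genes (log axis) in replicate 1 (filled circles) and replicate 2 (open squares), with 95% exact intervals; the dotted line marks equal counts. Mir139 over Mir149 crosses that line, and Mir140 over Mir185 shows the widest gap, from 74.0 to 2.35.

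By a two-sided exact binomial test per gene, with Benjamini-Hochberg adjustment over the 306 detected genes, 61.1% of genes differed between the libraries beyond counting error, and 36.6% did so by at least 1.5-fold. All 4 genes are among the former, and Mir149, Mir140 and Mir185 among the latter. The genes were chosen with this difference known, so these counts support nothing. The test measures 2 libraries and not the spread between animals. The median detected gene had a log2 ratio of replicate 2 over replicate 1 of -0.19, which edgeR's TMM factors moved to 0.03. With those factors Mir139 stood at -0.21, Mir149 at 1.00, Mir140 at -1.89 and Mir185 at 3.09, against -0.43, 0.78, -2.11 and 2.87 with library totals.

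At their levels few genes differed as much as Mir140 and Mir185, which were chosen for it. Of the 20 genes at least as abundant as Mir140, 1 differed as much in either direction, the erythroid Mir451a, and of the 82 at least as abundant as Mir185 it was again Mir451a alone. For Mir149 it was 4 of 14 genes and for Mir139 6 of 12. Among the other 305 detected genes, 2 differed by more than Mir185, 9 by more than Mir140, 91 by more than Mir149 and 161 by more than Mir139.

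**Figure D4:**
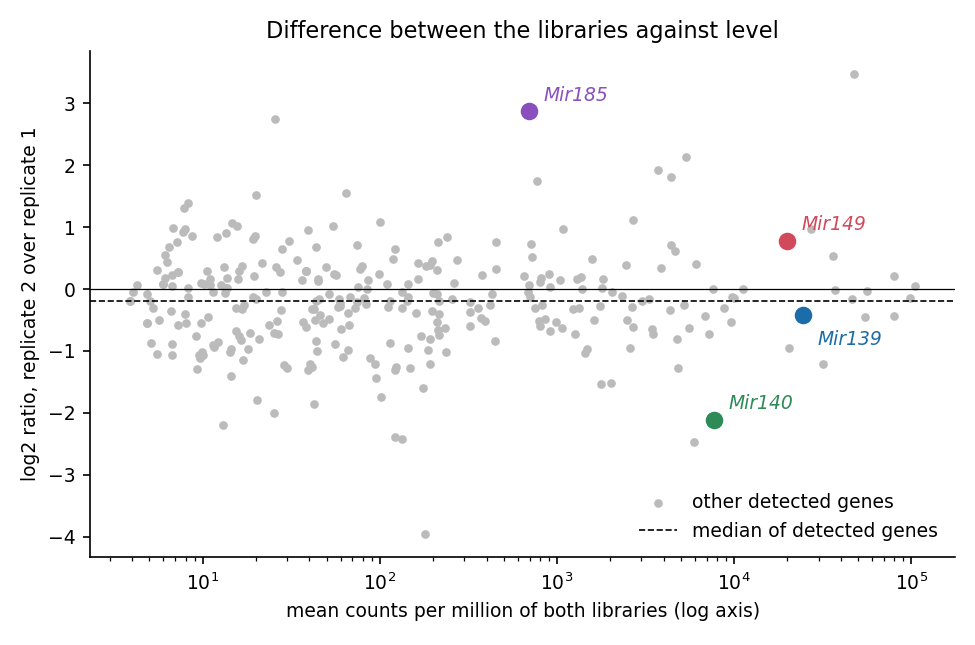
Log2 ratio of replicate 2 over replicate 1 against mean CPM (log axis) for the 306 detected genes, with the 4 genes in colour, a solid line at 0 and a dashed line at the median of -0.19. Mir185 at 2.87 and Mir140 at -2.11 lie at the upper and lower edges of the cloud, and Mir139 and Mir149 lie closer to its middle.

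The genes nearest to each in level and in ratio were taken by a fixed rule, as likeness in the mean log2 CPM or in the 1 ratio that 2 libraries give. Mir139 was nearest in level to Mir99a (27338 ± 12521 CPM, SD, n = 2) and Mir451a (47322 ± 55869 CPM), and nearest in log2 ratio to Mirlet7g and Mirlet7f-2, both at -0.44. Mir149 was nearest in level to Mir26b (20288 ± 9132 CPM), hosted by Ctdsp1, and to Mir139. In ratio it was nearest to Mir92-2 and Mir200c, both at 0.76. Mir140 was nearest in level to Mir652 (6118 ± 1219 CPM) and Mirlet7e (5534 ± 1691 CPM).

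In log2 ratio Mir140 had no gene of at least 100 CPM closer than 0.29. Its nearest were Mir223 of myeloid cells (-2.39) and Mir487b (-2.42). Mir185 was nearest in level to Mir411 (455 ± 72.4 CPM) and Mir92-2 (453 ± 166 CPM), and its nearest in log2 ratio were Mir451a (3.47) and Mir99b (2.13), at distances of 0.60 and 0.74. Mirlet7f-2, Mir92-2, Mir487b and Mir411 share 20 bases with another hairpin, so their own values are uncertain.

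The detected erythroid markers had higher values in replicate 2, like Mir185. Most detected markers of fibroblasts, smooth muscle, endothelium, leukocytes and heart muscle had lower values, like Mir140. The erythroid list, Mir451a, Mir144 and Mir486, summed to 11488 CPM in replicate 1 and 95604 in replicate 2, and all 3 genes were higher in replicate 2, as was Mir185, where 60 of 306 detected genes were higher by the same test. Mir451a carried the sum, with 7816 and 86827 CPM, Mir144 had 1963 and 6858 CPM, and Mir486 differed by 1.12-fold (1710 and 1919 CPM). The fibroblast list summed to 11329 and 2594 CPM. Its 4 detected genes of 6 all had lower values in replicate 2, as did Mir140. Of all 306 detected genes, 127 were lower by the test. Mir21a carried the sum, with 10018 and 1810 CPM. Mir214 had 1121.5 and 701.4 CPM, Mir152 had 173.6 and 70.0 CPM, and Mir199b did not pass the test. Mir199b and the undetected Mir199a-1 and Mir199a-2 share a stretch with another hairpin, so their reads may map to several places. Their low counts are therefore uncertain. Lower values in replicate 2 were the more common case with library totals, since 127 of the 187 genes past the test were lower, against 84 of 181 with TMM factors. In the cartilage list, Mir455 of Col27a1 stood at 1170 CPM in replicate 1 and 809 in replicate 2, and Mir675 had 0 and 1 counts. The part of these cell types in the values of Mir140 and Mir185 was not tested.

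The 5 detected leukocyte genes of 6 listed summed to 6387 and 5159 CPM, of which Mir150, Mir142 and Mir223 were lower in replicate 2 and Mir155 and Mir342 did not pass the test. The listed Mir146a had no row under that symbol. A gene named Mir146, not in these sums, had 1576 CPM in replicate 1 and 952 in replicate 2. It shares a stretch with another hairpin, and whether it is the listed gene was not checked. The 3 endothelial genes summed to 77006 and 88162 CPM, with Mir126a higher in replicate 2 (73653 and 85269 CPM) and Mir222 lower. Mir221 was lower too, at 3206 and 2812 CPM, with a log2 ratio of -0.19 equal to the median gene. The sums of the pair of smooth muscle genes, Mir143 and Mir145a, were 50667 and 44521 CPM. Mir143 carried them, with 48716 and 43522 CPM, while Mir145a had 1951 and 998 CPM and was 1.95-fold lower in replicate 2. The heart muscle list summed to 6048 and 8577 CPM, with Mir208a higher in replicate 2 and Mir208b, Mir499 and Mir1a-2 lower. Reads of its Mir1a and Mir133a genes may map to several places, and such reads are not in the sum.

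Other intronic microRNAs give the frame for the 4 genes. The annotation holds 450 microRNA genes that lie in an intron of a coding gene on the same strand, touch no exon of it and share no 20 bases with another hairpin, and 87 were detected. Mir139, Mir149 and Mir185 are among them; Mir140 is not, because of Wwp2-206. Of the 87 genes, 20 were higher and 31 lower in replicate 2 by the binomial test, and 10 and 21 by at least 1.5-fold. With TMM factors 34 were higher and 24 lower, and 20 and 9 by at least 1.5-fold. Over all detected genes 60 were higher and 127 lower, and with TMM factors 97 and 84. By at least 1.5-fold these were 34 and 78, and with TMM factors 52 and 46. With library totals, 35.6% of the 87 genes and 36.6% of all detected genes passed both the test and 1.5-fold. The median log2 ratio of the intronic genes was -0.14, beside -0.19 for all detected genes.

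When only exons of coding transcripts removed a gene, the list held 99 detected genes and all 4 genes were in it. These 99 genes held 38.1% of microRNA counts in replicate 1 and 32.1% in replicate 2. The 4 genes gave 14.5% and 15.6% of that. By mean level Mir139 ranked 4 in the list, behind Mirlet7g, Mir126a and Mir22, and Mir149 ranked 6, Mir140 9 and Mir185 30. Within the list Mir185 had the highest log2 ratio, 2.87, followed by Mir99b in Spaca6 at 2.13. The lowest was -2.19, with Mir140 next to it at -2.11. Mir140 and Mir185 were chosen with this difference known and the list was set after seeing the data. Their place near the ends is therefore no result about intronic genes.

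**Figure D5:**
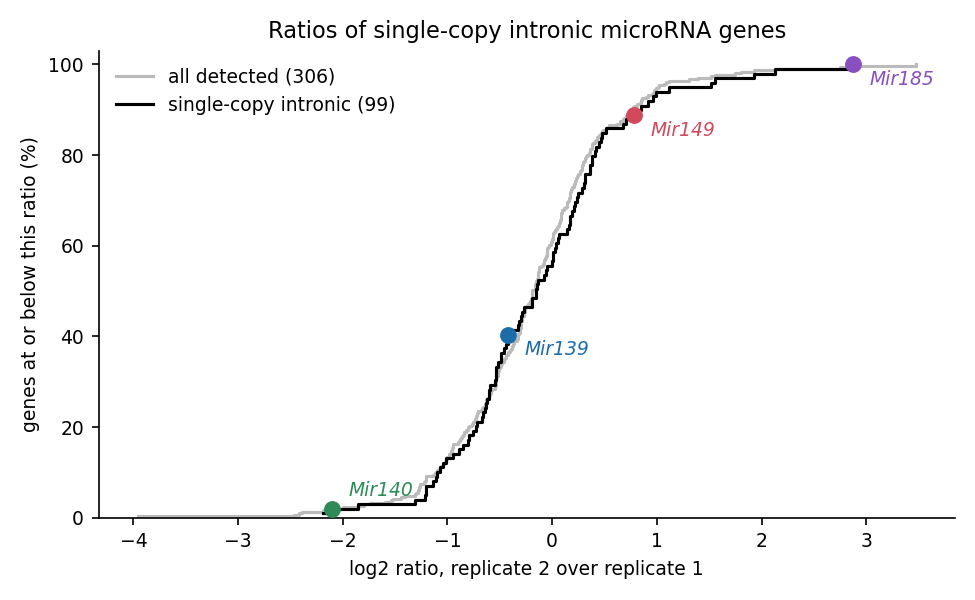
Cumulative share of genes (%) at or below each log2 ratio of replicate 2 over replicate 1, for the 306 detected genes (grey) and the 99 single-copy intronic genes by coding exons (black), with the 4 genes as points on the black curve. The curves run close together, Mir140 and Mir185, chosen with their difference known, lie at or near the opposite ends, and Mir139 lies near the middle.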

How the data were processed

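Short RNA from 2 heart libraries was sequenced and counted per microRNA gene. The deposited values are raw read counts without normalization, on mm10 per the labels and with GENCODE M21 per the deposited text. The aligner is not given in the sources used here, nor is the counting tool. From their values, 3 count columns were read as either, own and opposite strand. The first 4 lines name no gene (70.0% and 65.3% of reads) and were left out. Multimapping reads counted for no gene.

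The libraries are numbered as biological replicates but share a donor label, so the spread between them may be technical. They differed beyond sampling noise (chi-square 1138 per degree of freedom). With 1 library a side, a per-gene exact binomial test was used. It was checked only on simulated counts that held counting error and no further spread. That check therefore does not show how the test behaves on libraries that differ as much as these. The members and lists were chosen with earlier results of these data known. Named genes were the 4 members, for each the 2 nearest detected genes in mean log2 CPM and the 2 nearest in log2 ratio with a mean of at least 100 CPM, genes sharing a seed, microRNA genes within 50 kb or in the host, and detected markers; of these, the neuron list (2 of 8 detected, 66.4 and 75.8 CPM in sum), the skeletal muscle list (2 of 2, 272 and 165 CPM) and the liver list were used only to check the tissue. The listed leukocyte symbol Mir146a had no row, and the row named Mir146 was not used in its place.

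Sequences came from RefSeq (GRCm38.p6). Alternatives were the either-strand column, other denominators, TMM and DESeq2 factors, thinning, count filters and each replicate alone. Python 3.11.15, scipy 1.17.1, RNAfold 2.7.2, R 4.3.3, edgeR 4.0.16 and DESeq2 1.42.0 were used.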

Additional observations from a re-analysis of the deposited data

How the results depend on the processing

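The sign of the log2 ratio of replicate 2 over replicate 1 of each of the 4 genes held in all 5 alternatives, 20 values in all. For Mir139, Mir149 and Mir140 it was -0.28, 0.93 and -1.96 with the either-strand column. For Mir139, Mir149, Mir140 and Mir185 it was -0.22, 0.98, -1.90 and 3.07 without the 10 most abundant other genes in the denominator, -0.21, 1.00, -1.89 and 3.09 with TMM factors, and -0.24, 0.97, -1.92 and 3.06 with DESeq2 size factors. These move every gene by the same amount by construction. Levels followed the denominator: without the 10 most abundant other genes they were 67793, 57000, 20566 and 2061 CPM in the same order. Over all reads Mir139 stood at 7809 CPM and Mir149 at 6569 CPM, and with the either-strand column Mir139 stood at 32472 CPM. The combined share was 7.05% with the either-strand column, 14.7% without the 10 most abundant other genes and 1.70% of all reads. The 4 genes have the same counts in the either-strand column, but some abundant genes have few or none there, so its total is smaller. Mir378a has 0 there in both libraries against own-strand counts of 251135 and 260986. Mir126a has 11 and 9 there against 178568 and 236222. With 1 replicate left out, levels ran from 20818 to 27970 CPM for Mir139, 14684 to 25181 for Mir149, 2887 to 12430 for Mir140 and 168 to 1226 for Mir185, and the share from 5.01% to 5.53%. A ratio needs both libraries and has no such value.

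Of 306 detected genes 187 passed the binomial test, and 112 when a 1.5-fold difference was also asked for. The other 5 settings gave 138 to 183 genes. Of these, TMM and DESeq2 factors tested the same 306 genes, and the rest tested different numbers. Without a filter it was 183 of 682 genes (26.8%), and with at least 100 counts in both libraries 138 of 182 (75.8%). With the either-strand column it was 158 of 282 (56.0%), against 61.1% of 306. The median log2 ratio of the single-copy intronic genes changed sign with the scaling, to 0.074 with TMM and 0.047 with DESeq2 factors, so no direction held for that list. The list by coding exons alone was chosen after seeing the data and gave -0.15. No paired analysis was possible because the libraries form a single group. At this depth 10 counts equal 4.12 CPM in replicate 1 and 3.61 in replicate 2. All 4 genes had at least 407 counts, so their values are limited by the number of libraries and not by depth.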
